A study of Mus musculus with 4 samples.

Results

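The stretch-responsive ankyrin repeat and Xin genes are 7 genes of the muscle cytoskeleton: Ankrd1, Ankrd2, Ankrd23, Csrp3, Xirp1, Xirp2 and Nrap. They were matched by gene symbol to a table of 24054 symbols, and all 7 were found and tested. The family was chosen by the expression difference between the groups described here, in a first look at the same libraries, so the difference of its members between the groups is given as a description, without a p-value. The libraries came from the soleus, a slow postural hindlimb muscle, of female *mdx* mice, which lack dystrophin through a mutation carried by both groups. In the mCDC group, 2 mice had received mouse cardiosphere-derived cells (mCDCs) into the femoral vein every month from 8 weeks of age until the endpoint at 12 months. These stromal and progenitor cells were grown from the heart of 1 dystrophin-competent mouse of the same background strain. In the vehicle group, 2 *mdx* mice of the same age and genotype had received the cell-free medium on the same schedule. The labels give 1 library per numbered muscle and no litter or dissection date, so the spread below is that between 2 muscles per group.

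These proteins sit where the sarcomere meets its anchors. Ankrd1, Ankrd2 and Ankrd23 are the muscle ankyrin repeat proteins, which bind titin in the elastic I-band and can also enter the nucleus, and Ankrd1 and Ankrd2 are known for rising with passive stretch, injury and denervation. Csrp3, the muscle LIM protein, binds alpha-actinin and telethonin at the Z-disc and is characteristic of slow fibers. Xirp1 and Xirp2 carry the actin-binding Xin repeats and gather at myotendinous junctions and at sites of fiber damage. Nrap, a relative of nebulin with a LIM domain, takes part in the assembly of new myofibrils and ends up at the myotendinous junction.

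Ankrd1, Ankrd2 and Nrap share chromosome 19, and the other genes each lie on a chromosome of their own. On the GRCm38 assembly, the GENCODE M21 annotation places Ankrd1 at chr19:36111961-36120099 on the minus strand, with 9 exons in its longest transcript. Ankrd2 is at chr19:42036000-42045110 on the plus strand and Nrap, with 42 exons, at chr19:56320035-56390037 on the minus strand. Ankrd23 is at chr1:36530188-36536883, Csrp3 at chr7:48830398-48848033 and Xirp1 at chr9:120013755-120023598, all on the minus strand, and Xirp2 is at chr2:67446002-67526614 on the plus strand. The spans of Ankrd23 and Xirp1 overlap Gm42417 and Cx3cr1 on the same strand, and those of Xirp2 and Nrap overlap other genes on the opposite strand. Whether the counting used strand is not given in the sources used here, and without strand, reads from the stretches that Xirp2 and Nrap share with genes on the opposite strand cannot be told apart.

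RefSeq promoter windows (GRCm38.p6), from 250 bases before to 50 bases after an annotated start, were found for 6 of the 7 genes, all but Xirp1. The windows of 3 genes with higher counts in mCDC libraries and of Xirp2, which had similar counts in both groups, are printed 5′ to 3′ on the gene's own strand, because they differ in the muscle motifs they hold. Capitals mark every match, on either strand, to the MCAT motif CATTCC bound by TEAD factors, the E-box CANNTG bound by MyoD-type factors, TATAAA and the MEF2 motif. The serum response motif CArG was searched as well and was in none of the windows.
Ankrd1 (chr19:36119795-36120094, minus strand): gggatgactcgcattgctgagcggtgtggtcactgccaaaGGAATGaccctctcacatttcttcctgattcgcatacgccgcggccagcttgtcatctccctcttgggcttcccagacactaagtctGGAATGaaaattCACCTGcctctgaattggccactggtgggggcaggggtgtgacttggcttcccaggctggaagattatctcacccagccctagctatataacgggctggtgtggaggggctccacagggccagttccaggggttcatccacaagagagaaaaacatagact
Ankrd2 (chr19:42035777-42036076, plus strand): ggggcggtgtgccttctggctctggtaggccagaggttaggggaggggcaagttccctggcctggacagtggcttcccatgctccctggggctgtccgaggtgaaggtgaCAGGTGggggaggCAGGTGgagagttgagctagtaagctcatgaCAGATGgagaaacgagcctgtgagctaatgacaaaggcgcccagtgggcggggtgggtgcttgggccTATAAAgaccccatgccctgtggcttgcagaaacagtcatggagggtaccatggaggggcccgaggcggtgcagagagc
Csrp3 (chr7:48848002-48848301, minus strand): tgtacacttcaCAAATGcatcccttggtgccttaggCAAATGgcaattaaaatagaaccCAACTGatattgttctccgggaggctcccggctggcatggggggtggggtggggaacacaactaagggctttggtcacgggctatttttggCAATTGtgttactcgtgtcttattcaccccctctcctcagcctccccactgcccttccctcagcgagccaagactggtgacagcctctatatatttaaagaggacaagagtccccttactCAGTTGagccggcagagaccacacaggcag
Xirp2 (chr2:67445752-67446051, plus strand): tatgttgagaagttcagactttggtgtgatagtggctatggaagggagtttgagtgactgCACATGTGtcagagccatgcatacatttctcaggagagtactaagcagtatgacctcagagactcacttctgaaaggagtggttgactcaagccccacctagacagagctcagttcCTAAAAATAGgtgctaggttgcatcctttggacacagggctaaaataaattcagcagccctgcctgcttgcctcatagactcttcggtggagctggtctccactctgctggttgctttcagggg

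The Ankrd1 window held 2 MCAT matches on the opposite strand, beginning at -210 and -123 from the start, and 1 E-box at -111. An MCAT match is in 14.7% of the 32851 windows of this length, and 2 or more are in 1.36%. The Ankrd2 window held no MCAT match but 3 E-boxes, at -140, -127 and -96, and a TATAAA at -29. The Csrp3 window printed above held 5 E-boxes and no other motif, and a second Csrp3 window, not printed, held 4 E-boxes only. At least 3 E-boxes are in 17.6% of all windows and at least 1 in 72.3%. The Xirp2 window held 1 MEF2 match, at -74, which 3.19% of windows hold, and 2 E-boxes that overlap each other. Both windows listed for Ankrd23 held 1 MCAT match, at 37 and at -120, and the Nrap window held E-boxes only. TATAAA is in 13.6% of windows and CArG in 1.63%. A match to these letters is a description of the window and not a binding site.

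Library totals ran from 22481391 to 27187425 expected counts, of which the 7 genes together took between 1.3% and 1.83% of each library. Of the 24054 genes, 13652 had enough counts to be tested. Levels are in CPM, a gene's counts relative to the total of its library on the usual scale, with the libraries scaled to each other by the trimmed mean of M-values (TMM). The study's thresholds were used for calls: in edgeR's quasi-likelihood test, an unadjusted p below 0.05 together with a change of more than 1.5-fold. They called 1.26% of tested genes higher in mCDC muscles and 2.74% lower. With that test 0 genes had an adjusted p under 0.05 and 947 an unadjusted p under 0.05, and with DESeq2 48 genes had an adjusted p under 0.05. For any 1 gene, an exact two-sided permutation test over these 4 muscles cannot go below p = 0.333. The p-values measure the spread between these muscles only.

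Per kilobase of the longest annotated transcript, the genes spanned more than an order of magnitude. Ankrd2 had the highest level, 1726 ± 791 CPM per kb (SD, n = 4 libraries), and was 33rd of 13534 ranked genes. Nrap followed with 954 ± 75.9 CPM per kb and Ankrd23 with 920 ± 67.4 CPM per kb, and the ranges of these neighbors over the 4 libraries overlapped. Csrp3 had 432 ± 273, Xirp2 254.5 ± 25.8, Xirp1 204 ± 129 and Ankrd1 74.5 ± 35.0 CPM per kb (SD, n = 4 each), and neighbors in this order overlapped. The range of Ankrd2 lay above that of Nrap, and that of Ankrd23 above that of Csrp3. The place of Csrp3 rests on its length: its longest annotated transcript is a retained intron of 2433 bases, and with the longest protein-coding transcript, of 899 bases, Csrp3 had 1170 CPM per kb and came second. With coding length as the divisor, a choice made after the data were seen, Ankrd23 came first at 2283 CPM per kb, ahead of Ankrd2 at 1972 and Csrp3 at 1807. Ankrd1 was lowest with each of the 3 lengths, at 157 CPM per kb of coding sequence.

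**Figure D1:**
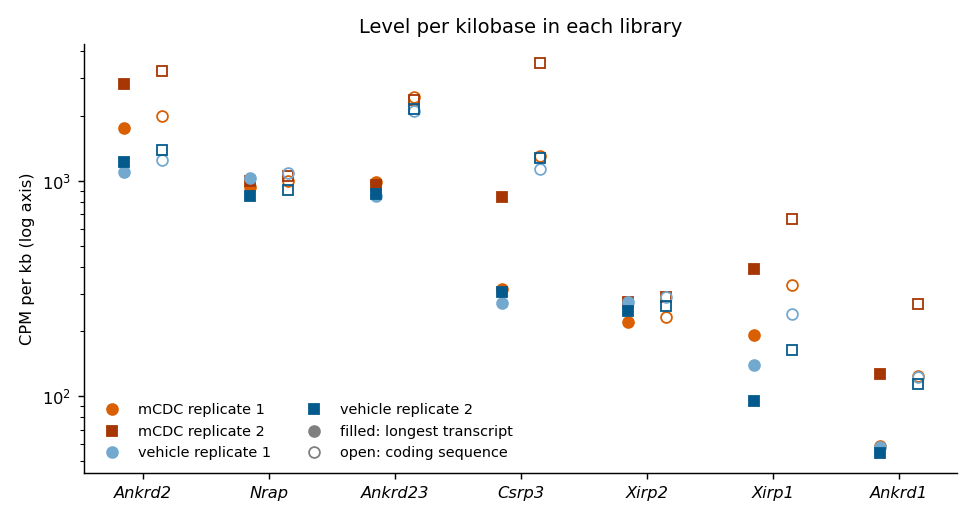
CPM per kb on a log axis for each gene in each of the 4 libraries, with filled symbols for the longest annotated transcript and open symbols for the coding sequence. Ankrd1 was lowest at a mean of 74.5 CPM per kb of the longest transcript, and the symbols of Ankrd23, Nrap and Xirp2 lie close together while those of Ankrd1, Ankrd2, Csrp3 and Xirp1 are spread by mCDC replicate 2.

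Among the muscle ankyrin repeat genes, Ankrd1 and Ankrd2 had higher means in mCDC muscles and Ankrd23 differed little. Ankrd1, the stretch- and injury-induced member, had 118 CPM in mCDC replicate 1 and 256 in mCDC replicate 2, against 118 and 109.5 CPM in vehicle replicates 1 and 2. The other 3 libraries lay close together, with mCDC replicate 1 only 1.003-fold above the higher vehicle library, and mCDC replicate 2 stood 2.17-fold above the next highest. The means were 187 ± 97.7 CPM for mCDC and 114 ± 5.91 CPM for vehicle (SD, n = 2 each), and the log2 fold change was 0.72 (standard error 0.31).

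Ankrd2, the slow-fiber member, had 1995 and 3224 CPM in mCDC replicates 1 and 2 and 1247 and 1389 CPM in vehicle replicates 1 and 2. Both mCDC libraries were above both vehicle libraries, with the lower of them 1.44-fold above the higher vehicle library. The log2 fold change was 0.99 (standard error 0.24). Ankrd23, a member linked to energy metabolism, was at 2262 and 2187 CPM in mCDC replicates 1 and 2, against 1943 and 1990 CPM with vehicle. Its groups did not overlap either, but its means of 2225 ± 52.7 and 1966 ± 33.1 CPM (SD, n = 2 each) gave a log2 fold change of only 0.18 (standard error 0.16).

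The LIM-domain genes Csrp3 and Nrap differed from each other. Csrp3 had 762.5 and 2045 CPM in mCDC replicates 1 and 2 and 658 and 741 CPM in vehicle replicates 1 and 2. As for Ankrd1, mCDC replicate 1 was at the vehicle level, 1.03-fold above the higher vehicle library, while mCDC replicate 2 was 2.68-fold above mCDC replicate 1. The log2 fold change was 1.005 (standard error 0.38). Nrap, the most abundant of the 7 in counts, was at 5166 and 5484 CPM in mCDC replicates 1 and 2, against 5648 and 4699 CPM with vehicle. Its groups overlapped, and the log2 fold change was 0.04 (standard error 0.20).

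The Xin repeat genes parted in the same manner. Xirp1 had 1118 and 2266 CPM in mCDC replicates 1 and 2 and 814 and 557 CPM in vehicle replicates 1 and 2. Both mCDC libraries were above both vehicle libraries, and its log2 fold change of 1.30 (standard error 0.33) was the largest of the 7 with all libraries. Without vehicle replicate 2 it was 1.05, and those of Csrp3 and Ankrd2 were 1.09 and 1.06. Xirp1 was also the gene with the widest spread between the vehicle libraries, 1.46-fold, where the others differed by at most 1.202-fold. Xirp2, a far longer protein of the same family, was at 2646 and 3288 CPM in mCDC replicates 1 and 2, against 3294 and 2967 CPM with vehicle. Its groups overlapped, and the log2 fold change was -0.08 (standard error 0.19).

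**Figure D2:**
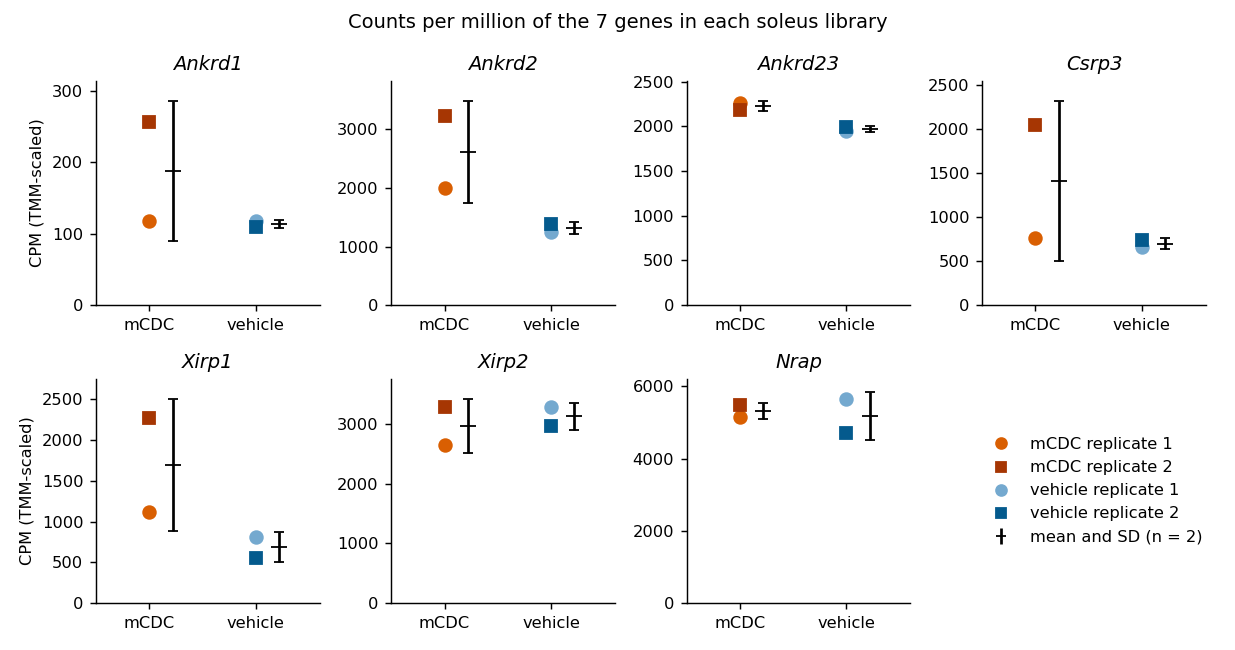
CPM, scaled by TMM, of each gene in the 2 mCDC and 2 vehicle libraries, with each group's mean and SD (n = 2) beside the points on axes that start at 0. For Ankrd1, Ankrd2, Csrp3 and Xirp1 mCDC replicate 2 is the highest point, at 256, 3224, 2045 and 2266 CPM, and for Xirp2 and Nrap the groups overlap.

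Ankrd1, Ankrd2, Csrp3 and Xirp1, 4 of the 7, were called higher at the study's thresholds and 0 were called lower, where 1.26% and 2.74% of all tested genes were, and nothing is read from that count because this difference chose the genes. The count was 3 with no filter on low counts, 3 with the replicate number as a block, where Ankrd1 was not called, and 2 with DESeq2 and also 2 without mCDC replicate 2, vehicle replicate 1 or vehicle replicate 2. The median log2 fold change was 0.72 over the 7 genes and -0.01 over all tested genes. Both mCDC libraries lay above both vehicle libraries for 5 of the 7 genes and for 19.2% of all tested genes. That number depended on the scaling. With counts divided by library totals alone it was 3 of 7, against 10.7% of tested genes, because Ankrd1 in mCDC replicate 1, at 115 CPM, was then below vehicle replicate 1 at 119, and Csrp3, at 741 CPM, below vehicle replicate 2 at 774. With median-of-ratios size factors it was again 5.

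The higher means of these 4 genes came for the larger part from 1 muscle. In mCDC replicate 2 each of them was over 1.5-fold above every other library: 2.17-fold for Ankrd1, 1.62-fold for Ankrd2, 2.68-fold for Csrp3 and 2.03-fold for Xirp1. Across all tested genes that library was the highest of the 4 for 28.0% and over 1.5-fold above every other library for 1.85%. Without mCDC replicate 2, the log2 fold change was 0.06 for Ankrd1 and 0.13 for Csrp3, and 0.60 for Ankrd2 and 0.71 for Xirp1. Without mCDC replicate 1, the values were 1.17 for Ankrd1, 1.55 for Csrp3, 1.29 for Ankrd2 and 1.73 for Xirp1. Against the mean of the vehicle libraries, mCDC replicate 1 was 1.04-fold for Ankrd1, 1.09-fold for Csrp3, 1.51-fold for Ankrd2 and 1.63-fold for Xirp1. The 2 mCDC muscles thus shared a higher Ankrd2 and Xirp1, while a higher Ankrd1 and Csrp3 was measured in 1 of them.

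**Figure D3:**
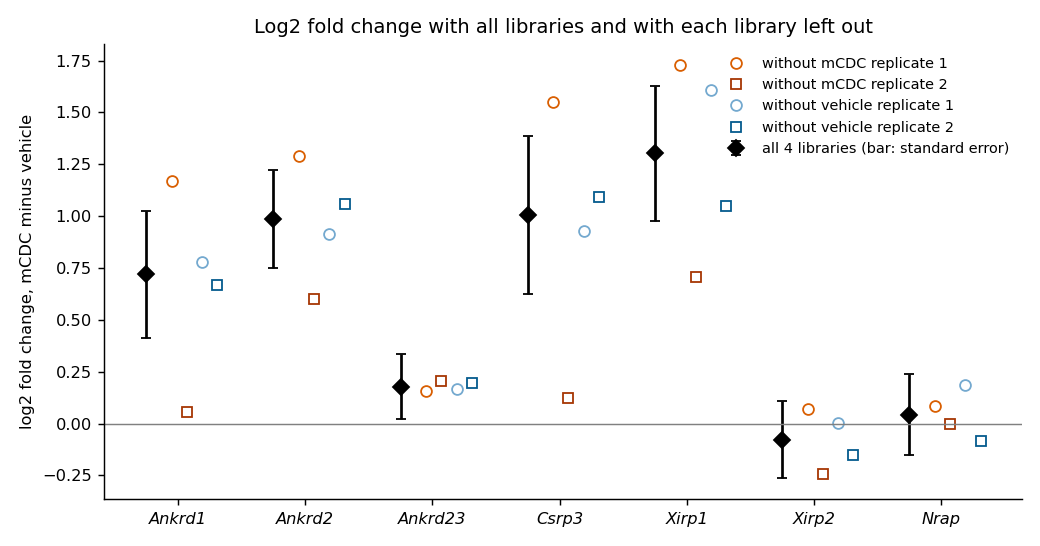
Log2 fold change of mCDC over vehicle for each gene with all 4 libraries (black diamonds, with the standard error) and after omission of single libraries (open symbols). Without mCDC replicate 2 Ankrd1 and Csrp3 come down to 0.06 and 0.13, whereas Ankrd23, Xirp2 and Nrap stay between -0.24 and 0.20 under every omission.

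Ratios of relatives within a library do not depend on how libraries are scaled. The ratio of Ankrd2 to Ankrd23 counts was 0.88 in mCDC replicate 1 and 1.47 in mCDC replicate 2, against 0.64 and 0.70 in vehicle replicates 1 and 2. The ratio of Xirp1 to Xirp2 counts was 0.42 and 0.69 with mCDC and 0.25 and 0.19 with vehicle. In both pairs the 2 mCDC muscles were above the 2 vehicle muscles. Per kb of transcript, Xirp1 exceeded Xirp2 in mCDC replicate 2 alone, at a ratio of 1.41, and was at 0.87, 0.51 and 0.39 of it in the other libraries. Per kb of coding sequence it exceeded Xirp2 in both mCDC libraries, with 329 against 233 CPM per kb in replicate 1 and 667.4 against 289.7 in replicate 2, and in neither vehicle library. The ratio of Csrp3 to Nrap counts was 0.15 in mCDC replicate 1 and 0.37 in mCDC replicate 2, against 0.12 and 0.16 in the vehicle libraries, and overlapped between the groups. The ratio of Ankrd1 to Ankrd2 counts was highest in vehicle replicate 1, at 0.09, and lowest in mCDC replicate 1, at 0.06.

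**Figure D4:**
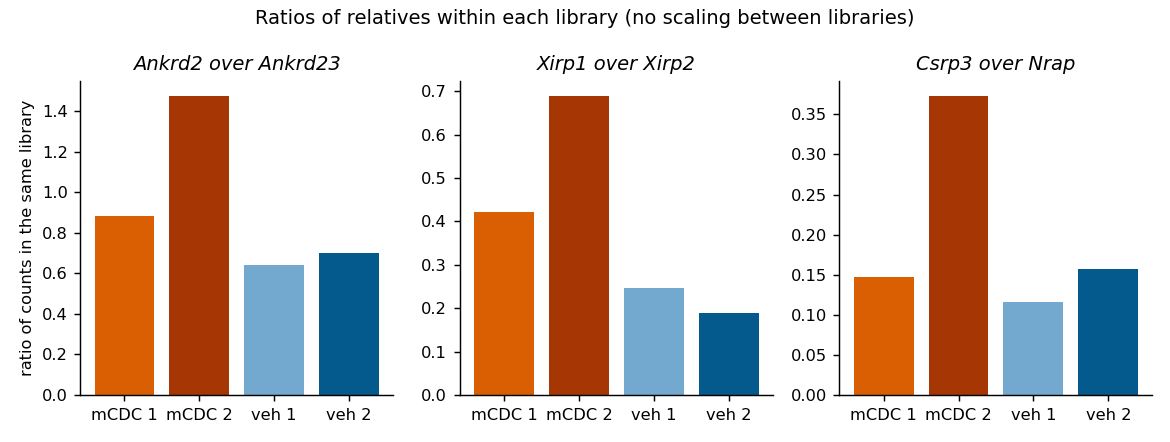
Ratio of counts of Ankrd2 to Ankrd23, Xirp1 to Xirp2 and Csrp3 to Nrap in each of the 4 libraries (bars from 0, 1 bar per library, no error bar). The mCDC bars are above the vehicle bars for Ankrd2 to Ankrd23 (0.88 and 1.47 against 0.64 and 0.70) and Xirp1 to Xirp2, and for Csrp3 to Nrap mCDC replicate 2 alone is above the rest at 0.37.

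Likeness between genes was measured as the root mean square difference of their log2 CPM over the 4 libraries after each gene was centered on its own mean. Csrp3 and Ankrd1 were the closest of the 4 higher genes, 0.18 apart, with Ankrd1 the 14th nearest of all tested genes to Csrp3 and Csrp3 the 89th nearest to Ankrd1. Xirp1 was 0.31 from Ankrd2 and 0.72 from its own relative Xirp2. Ankrd2 was 0.24 from Ankrd1 and 0.47 from Ankrd23. Xirp2 and Nrap were 0.11 apart. Outside the family, the 3 genes nearest to Ankrd1 were Pcbp3, Hspa5, the chaperone of the endoplasmic reticulum, and S100a10, with distances from 0.04 to 0.07. Hspa5 was at 211 and 405 CPM in mCDC muscles, against 195 and 175 CPM with vehicle. Those nearest to Ankrd2 were Rims4, the transcription factor gene Klf5 and Fhad1, those nearest to Csrp3 were Ak5, the chemokine gene Cx3cl1 and Card14, and those near to Xirp1 included Cxcr6 and Arc. Rims4, Fhad1, Ak5 and Cxcr6 had under 2 CPM in every library, so their profiles rest on few counts. The nearest genes to Ankrd23 (Adck1, Eri3 and Scamp3), Xirp2 (Fign, Sec63 and Ero1l) and Nrap (Hnrnpu, Uhrf1bp1l and Dnaja2) tell less, since 2123, 645 and 1991 tested genes lay within 0.1 of them. With 4 libraries, a small distance is a description of these muscles only.

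Companion genes, the partners and signaling pathways of these proteins, were given in 8 lists with 120 distinct tested genes. Of these, 8 were called higher in mCDC muscles, 6.67% where 1.26% of all tested genes were, and 0 were called lower, with Pgm5 alone lower at an unadjusted p under 0.05 and Hdac4 called lower with DESeq2. Both mCDC libraries were above both vehicle libraries for 30.8% of the companion genes, where 19.2% of all tested genes were, and below for 9.17%, where 19.5% were. For 6.67% of them mCDC replicate 2 was over 1.5-fold above every other library, where 1.85% of all tested genes were. The median log2 fold change of the companion genes was 0.12. In edgeR's quasi-likelihood test with all 4 libraries none passed adjustment over all genes, and the smallest adjusted p among them was 0.612. With DESeq2, Myog, Klhl40 and Hspb1 had adjusted p-values of 0.039, 0.0425 and 0.0425. In edgeR, each fit that leaves out 1 library has 1 library in a group and takes its spread from the other pair alone. Such fits lend these genes no support, and nothing is read from which genes passed in them.

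The partners of the Xin and Nrap proteins at actin filament ends included 2 called genes among 20 tested. Flnc, or filamin C, which crosslinks actin and binds Xin proteins, was at 3987 and 7106 CPM in mCDC replicates 1 and 2, and the vehicle libraries were at 3486 and 2891 CPM. Its log2 fold change was 0.80 ± 0.28 (standard error), with an adjusted p of 0.685 from edgeR. Klhl40, which stabilizes thin filament proteins, had 383 and 703 CPM against 287 and 282, and its log2 fold change was 0.93 ± 0.26 with an edgeR adjusted p of 0.619. Like Ankrd1, Ankrd2, Csrp3 and Xirp1, both were highest in mCDC replicate 2 and were above the vehicle libraries in mCDC replicate 1 as well. Without mCDC replicate 2, the log2 fold change was 0.32 for Flnc and 0.43 for Klhl40. Klhl41, the related protein that binds Nrap, had 1428 and 1608 CPM against 1534 and 1137. Its groups overlapped, and it was named after its values were seen.

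The chaperones that protect and turn over filamin were the list with the highest median, 0.32. Its 12 tested genes ran from 0.03 for Dnajb6 to 1.01 for Hspb1 on the log2 scale, all positive, as were 80 of the 120 companion genes. Hspb1, a small heat shock protein that binds damaged filamin and titin, had 674 and 1405 CPM in mCDC muscles against 500.3 and 530.2, and its log2 fold change was 1.01 ± 0.30 with an edgeR adjusted p of 0.635. Cryab, another small heat shock protein and a titin-binding chaperone that also stands on the titin list, had 4742 and 6119 CPM against 3231 and 3542, and its log2 fold change was 0.68 ± 0.20 with the same adjusted p. These were the called genes of that list. Cryab was the 1 called gene of 16 on the titin list, whose median was 0.17, and Ttn itself, the spring to which the ankyrin repeat proteins bind, had 9418 and 9587 CPM in mCDC muscles against 11350 and 10830. Its log2 fold change was -0.22 with an edgeR adjusted p of 0.82, and it was named after its values were seen.

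Of the 16 Z-disc partners of the muscle LIM protein, 0 were called in edgeR's quasi-likelihood test, 2 of them (Pdlim3 and Pdlim5) had an unadjusted p under 0.05, and their median log2 fold change was 0.18. The 4 most abundant, Actn2, Tcap, Ldb3 and Myot, had log2 fold changes of 0.23, -0.29, 0.24 and 0.16. Of the 4 tested close relatives 0 were called, and 0 had an unadjusted p under 0.05 in that test. Neb, Csrp1, Lasp1 and Csrp2 were at -0.34, -0.03, 0.08 and -0.19, and Nebl had too few counts to be tested. For 3 of these relatives the groups overlapped, and for Neb both mCDC libraries were below both vehicle libraries.

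Of 23 tested regulators and targets of YAP, TEAD and SRF, 0 were called in edgeR's quasi-likelihood test, Abra alone had an unadjusted p under 0.05, and their median was 0.04. Vgll2, Tead1, Abra and Srf, the most abundant, had log2 fold changes of 0.18, -0.13, 0.52 and 0.35. Cyr61 and Ctgf, classic YAP targets named here after their values were seen, overlapped between the groups. Cyr61 was at 123 and 172 CPM in mCDC muscles, against 159 and 53.4 CPM with vehicle. Ctgf had 37.9 and 64.9 CPM against 94.9 and 32.7. Of 19 genes of calcineurin and MEF2 signaling, Rcan1, a calcineurin inhibitor and target, was the called gene, with 544 and 935 CPM in mCDC muscles against 502 and 330 CPM. Its log2 fold change was 0.83 ± 0.28 with an edgeR adjusted p of 0.684. The median of that list was 0.00088.

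Among 12 denervation genes, 3 were called higher, among them Myog and Runx1, with log2 fold changes of 1.07 and 0.66 (adjusted p = 0.612 and 0.713 from edgeR). The median of the list was 0.21. The other 9 were not called, among them the acetylcholine receptor subunit genes Chrna1, Chrng, Chrnd and Chrne and the receptor-clustering kinase gene Musk, at log2 fold changes of 0.25, 0.27, 0.19, -0.05 and 0.23, and Hdac4, at -0.65. Myog, the myogenic factor that rises when a fiber loses its nerve, was at 32.6 and 63.3 CPM in mCDC muscles, against 21.2 and 24.4 CPM with vehicle. Runx1, a transcription factor of denervated muscle, was at 18.8 and 30.7 CPM against 18.2 and 13.2, and was not called with the replicate number as a block. In both genes mCDC replicate 2 was the highest library. Without mCDC replicate 2, the log2 fold changes of the 8 called companion genes were between 0.26 and 0.61. Without mCDC replicate 1 they were between 0.855 and 1.47. Each of these fits has 1 mCDC library, assumed to vary like the vehicle pair, so calls from them measure no spread between mCDC muscles. Without vehicle replicate 1, Cryab and Hspb1 were not called, and without vehicle replicate 2, 4 of the 8 were not, among them Flnc, Rcan1 and Runx1.

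**Figure D5:**
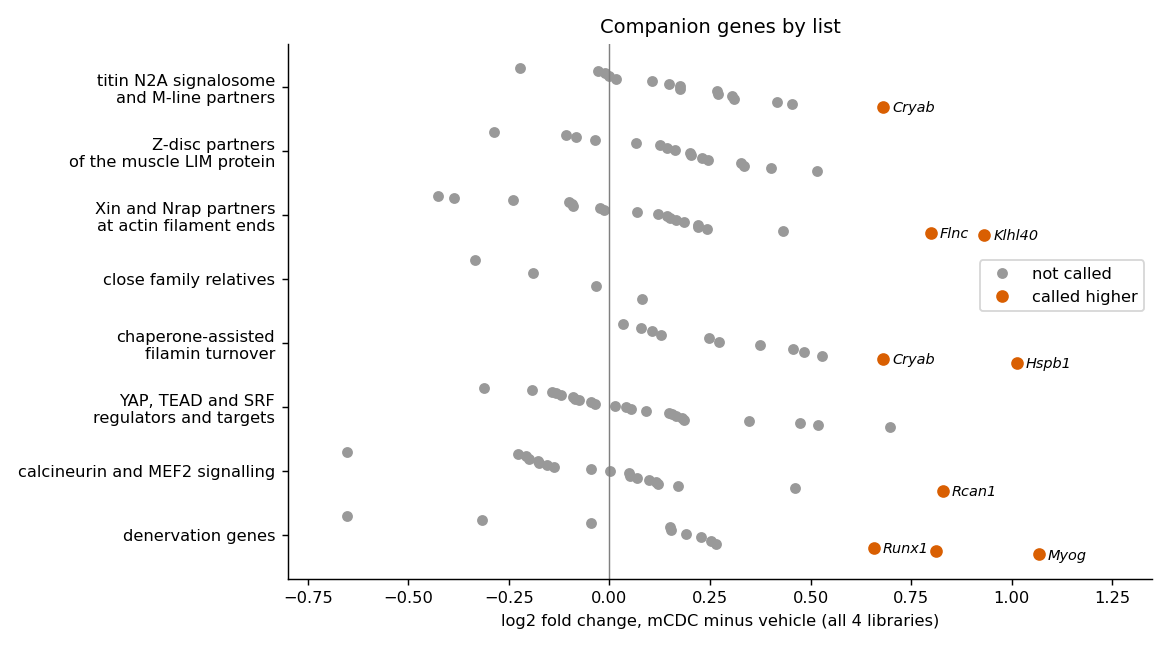
Log2 fold change of mCDC over vehicle for each tested companion gene (points), by list, with called genes in orange, 7 of them named, and all 4 libraries in the fit. The 8 called genes lie between 0.66 and 1.07, Cryab is on 2 lists, and no point is called lower.

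Markers of fiber types and other cells were set beside these values, and their part in the differences was not tested. The slow fiber genes summed to 99100 and 86250 CPM in mCDC replicates 1 and 2, against 96450 and 81180 CPM with vehicle, and the groups overlapped. Myh7 made up between 74.7% and 79.5% of the counts of the 4 adult myosin heavy chains. The fast fiber genes summed to 37940 and 31360 CPM, against 31110 and 38410 with vehicle, and overlapped as well. Myh4, the myosin of the fastest fibers, ranged from 47.5 CPM in mCDC replicate 2 to 2096 in mCDC replicate 1. The fast fiber genes Myh1, Pvalb and Actn3 were also lowest in mCDC replicate 2, at 603, 16.8 and 227.5 CPM, where the other libraries had at least 1661, 109 and 341 CPM. Atp2a1 was lowest there too, at 5659 CPM, where the other libraries had at least 6672 CPM. The remaining genes of that list were not lowest there. Myh2, Tnni2, Tnnt3 and Tnnc2, at 9617, 2825, 5930 and 4411 CPM, were second highest of the 4 libraries in mCDC replicate 2. Mylpf, at 2029 CPM, was above vehicle replicate 1 alone, at 1734 CPM. Regenerating fiber genes summed to 529 and 507.5 CPM with mCDC against 595 and 538 with vehicle, so that both mCDC libraries were lower, and 0 of 5 were called. Ankrd1, Csrp3 and Nrap are also abundant in heart, from which the infused stromal and progenitor cells were grown. Cardiomyocyte markers are given as a description, since they cannot show whether such stromal and progenitor cells were present. Of 13, Nkx2-5 and Myl7 had no count in any library, which allows up to 0.133 CPM in the shallowest library by counting error, and Nppa and Nppb were under 0.3 CPM. The list summed to 157.3 and 157.2 CPM with mCDC against 159.6 and 161.9 with vehicle, nearly all from Myh6 and Myl4, so that the mCDC libraries were slightly lower. Tendon and myotendinous junction genes summed to 182 and 239 CPM with mCDC against 240.3 and 270.3 with vehicle, with Scx called higher and Tnmd and Fmod lower. Fibroblast genes summed to 320 and 279 CPM against 307 and 515, endothelial genes to 106 and 85.6 against 89.9 and 187, and macrophage genes to 34.0 and 40.6 against 26.4 and 51.4. Lum and Pdgfra of the fibroblast list were called lower. Of the macrophage list Csf1r was called lower, and Cd68 was called higher, with 4.13 and 15.4 CPM in mCDC replicates 1 and 2 against 2.71 and 4.15 with vehicle, and overlapping groups. Csf1r, Emr1 and Lyz2 of the same list were lowest in mCDC replicate 2, at 3.93, 0.365 and 9.23 CPM, where Emr1 had 8 counts. Cd14 was highest in that library, at 1.096 CPM, and C1qa, at 10.55 CPM, was above vehicle replicate 1 at 7.17 CPM. Satellite cell genes summed to 54.3 and 50.7 CPM against 46.3 and 46.9, and smooth muscle genes, mostly Des, which all muscle expresses, to 10830 and 12630 against 10810 and 10410. Of the satellite cell list Pax7 was called higher and Chodl lower. The summed Schwann cell and red blood cell genes were highest in vehicle replicate 2, at 79.9 and 697 CPM, and Hba-a2 of the last list was called lower. The adipocyte sum was highest there as well, at 204 CPM, but 199.9 of it was Fabp4, and the other 4 adipocyte genes were lowest in that library. Outside the cardiomyocyte list, no marker was at 0 in all 4 libraries. In a whole muscle, more cells of a type and more RNA per cell cannot be told apart.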

How the data were processed

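Total RNA of 1 soleus per library was sequenced from 1 end. The authors aligned reads to UCSC transcripts (mm10 in the submitters' processing notes) using Bowtie2 2.1.0, and deposited unnormalized expected counts per gene symbol from RSEM 1.2.15. An expected count can be fractional because shared reads are divided, and 15.7% of the deposited values were not whole, though all of the members' values were whole. The labels and the methods name different library kits. Expected counts were rounded and tested with edgeR 4.0.16 (R 4.3.3): filterByExpr, TMM scaling, the quasi-likelihood F-test (legacy = FALSE), and Benjamini-Hochberg adjustment over 13652 genes. Log2 CPM used a prior count of 2. A standard error is the size of the log2 fold change over the root of its F value. The procedure was run on simulated counts, drawn from the kind of model the test assumes and with independent libraries. Those runs do not cover a case in which 1 muscle stands apart from its group.

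The members and lists were chosen with earlier results of these data known. Named genes were the members, the 3 genes nearest to each, and in each list the called genes or, with none, the 4 most abundant. Any other gene was named after its values were seen. The values of some genes that this rule names are not reported here. Gene lengths came from GENCODE M21 and promoters from RefSeq, both GRCm38. Alternatives were DESeq2 1.42.0, other scaling and filters, the legacy test, a replicate block, a correction for length and GC content, other gene lengths, and leaving out each library. Coding length was taken from the annotated coding exons. Intervals for counts of 0 (3 counts) cover counting error only.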

Additional observations from a re-analysis of the deposited data

How the results depend on the processing

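The number of genes called higher ran from 112 to 397 and of genes called lower from 236 to 834 when each library was left out in turn, against 172 and 374 with all, and was within 1.5 times of those under the other 7 alternatives, among them 207 and 293 with the length and GC trend removed. Leaving out 1 library moved the companion genes called higher from 8 to between 2 and 15, and those called lower from 0 to between 0 and 2. With DESeq2, 1 companion gene was called lower. The median log2 fold change of the 7 members ran from 0.13 without mCDC replicate 2 to 1.17 without mCDC replicate 1. Each of Ankrd1, Ankrd2, Ankrd23, Csrp3 and Xirp1 kept its sign under all 11 alternatives, while Xirp2 was at 0.15 with the length and GC trend removed and Nrap at -0.09 without vehicle replicate 2. The level of Csrp3 per kb moved from 432 to 1170 CPM with the protein-coding transcript, a choice made after the data were seen, as were the scaling by library totals and coding length, which moved Ankrd1 to 157, Ankrd23 to 2283 and Xirp1 to 350.2 CPM per kb. With the replicate block, 172 genes were higher and 308 lower, and 3 of the 7 members were higher in place of 4. Of the companion genes, 8 were higher and 1 was lower. Runx1 (log2 fold change 0.63, unadjusted p = 0.0631 in edgeR) was no longer called, and Egr1, of the YAP, TEAD and SRF list, was. The labels give no pairing, and same-numbered libraries did not deviate together (r = -0.04 across genes). The cause of these changes was not tested. With 2 libraries per group, no group could be tested for an outlying sample, and low counts limit the precision of nearest and companion genes with few CPM.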
